A study of Mus musculus with 8 samples.

Results

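Aminoacyl-tRNA synthetases attach each amino acid to its tRNAs before translation. The genes described here are the 35 synthetase genes chosen by symbol, 20 for cytosolic enzymes and 15 for mitochondrial enzymes whose symbols end in 2, out of 39017 genes in the table. All 35 were present under those symbols and all passed the filter on low values, which left 16250 genes for testing. Pars2, for the mitochondrial proline enzyme, is not among them and is given further on.

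The libraries came from induced germinal center B cells (iGBs), which are splenic B cells of C57BL6/J mice grown for 4 days on 40LB feeder cells. The feeders are fibroblasts that express CD40L and BAFF, and IL-4 was added at 1 ng/mL before the B cells were separated from them by elutriation. Both genotypes carried Cγ1-cre, a recombinase driver that acts only once B cells are activated. The Prmt5-null iGBs (PRMT5 FF Cgamma1-cre) also carried floxed Prmt5 alleles, and the Cγ1-cre iGBs served as controls, with 4 libraries of each genotype. Prmt5 encodes an arginine methyltransferase whose substrates include proteins of the splicing machinery. The comparison asks what changes in iGB mRNA when the enzyme is lost.

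The cytosolic enzymes supply the ribosomes that translate nuclear messages, and 8 of the genes (Dars, Eprs, Iars, Kars, Lars, Mars, Qars and Rars) encode members of the multisynthetase complex. The mitochondrial enzymes are made in the cytosol, imported, and charge the tRNAs that read mitochondrial messages. When charged tRNA is short, the kinase GCN2 and the transcription factor ATF4 raise the expression of amino acid transporters, biosynthetic enzymes and many cytosolic synthetases. Kars and Gars each encode enzymes for both compartments, so these genes have no mitochondrial counterpart in the list.

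Libraries held 42752293 to 47174851 counted reads in Prmt5-null iGBs and 36731721 to 50366174 in controls. Levels are the deposited counts after the authors' division by a library size factor, called normalized counts below. Prmt5 itself averaged 1538 ± 436 normalized counts in Prmt5-null and 11774 ± 908 in control iGBs (SD, n = 4), and all Prmt5-null libraries lay below all controls. B cell markers were high in every library, with a summed level of 327534 to 418488 over 8 genes, and 1 of the 8, Cd79a, was lower in Prmt5-null iGBs. Of 5 plasma cell genes tested, 2 fell (Prdm1, -0.48, and Xbp1, -0.45, as log2 fold changes) and 0 rose, and the 5 summed to 37685 to 45352 normalized counts in Prmt5-null and 41182 to 58366 in control libraries. Of 5 germinal center genes, 2 rose (Fas and Mef2b) and 1 fell (S1pr2), with sums of 27568 to 28708 and 20647.5 to 26033. The part of these cell states in the results below was not tested. Among 6 T cell genes Cd3e was at 0 in all libraries, only Lck could be tested, and it fell. These 6 summed to 316 to 481 normalized counts in Prmt5-null and 674 to 788 in control libraries, and no myeloid gene exceeded 83.3. Of 13 fibroblast genes that could be tested, 4 rose with loss of Prmt5 and 0 fell. For all these marker counts, the shares over all genes tested were 7.33% lower and 6.51% higher (adjusted p below 0.05 from limma). The summed level of all 15 fibroblast genes listed was 8659 to 16737 in Prmt5-null and 5787 to 10248 in control libraries, and its part in the results below was not tested. The libraries also fell into 2 sets by reads on the predicted gene Gm10800, above 1000 in the Prmt5-null libraries PRMT5-10617 and PRMT5-10618 and the control libraries CTRL-10596 and CTRL-10597 and below it in the other libraries. Results within each set, which the labels do not define, are given where they bear on a value.

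In control iGBs the cytosolic genes stood far above the mitochondrial ones. Per kb of annotated exon, the median level was 2092 normalized counts over the 20 cytosolic genes and 258 over the 15 mitochondrial genes. Vars, which charges valine, was the highest at 5980 ± 138 per kb (SD, n = 4), followed by Gars (glycine) at 3779 ± 427 and Kars (lysine) at 2864 ± 153. Control libraries of Vars and Gars did not overlap, nor did those of Gars and Kars. From Kars down to Sars (serine, 1975 ± 210) each gene overlapped the next, so neighbours in this stretch of 10 genes were not resolved, although Kars and Farsb lay above Rars, Iars, Lars and Sars in all control libraries. Cars, which charges cysteine, was the lowest cytosolic gene at 627 ± 37.3 per kb and lay below the mitochondrial genes Rars2, Iars2 and Lars2, with overlap between Cars and Lars2. Mars2 was the lowest of all at 74.2 ± 4.04 per kb. In all, 24 of the 34 neighbouring pairs in this order overlapped between control libraries. The order also rests on the length used. With the longest annotated transcript in place of all exons, Vars stayed first while Eprs moved from position 15 to 5, and Cars from 23 to 20.

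**Figure D1:**
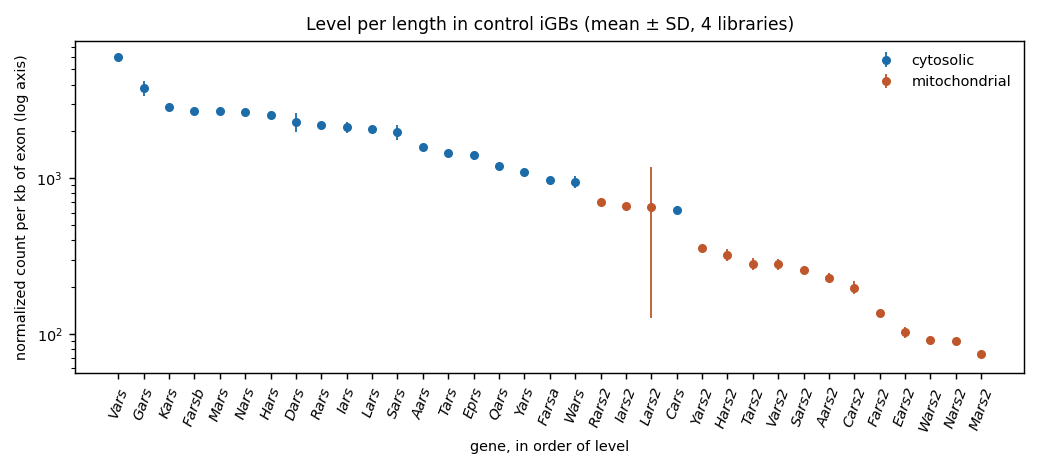
Levels of the 35 synthetase genes in control iGBs, in normalized counts per kb of exon on a log axis, as mean ± SD of 4 libraries with genes in order of level. Cytosolic genes (blue) span 627 to 5980 per kb and mitochondrial genes (orange) 74.2 to 708, and Lars2 has the widest spread.

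Cytosolic synthetase mRNAs were lower in Prmt5-null iGBs. Of the 20 cytosolic genes, 10 fell (Yars, Cars, Gars, Nars, Lars, Tars, Vars, Eprs, Wars and Aars), 0 rose and 10 did not pass the test. Over all genes tested, 7.33% fell and 6.51% rose at the same threshold, an adjusted p below 0.05 from limma on log2(normalized count + 1). The changes were modest, since none of the 10 reached a size of 1.5-fold. Of all genes tested, 2.99% passed the test with a fall of at least 1.5-fold and 3.49% with a rise of that size. The median log2 fold change, Prmt5-null over control, was -0.25 for the cytosolic genes and 0.00 for all genes tested. The normalized counts summed over the 20 genes were 176175 to 200001 in Prmt5-null and 208214 to 225086 in control libraries, without overlap. In bulk RNA, less mRNA per cell and fewer cells of a type cannot be told apart.

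Yars, the tyrosine enzyme gene, had the most negative cytosolic estimate. In the Prmt5-null libraries PRMT5-10617, PRMT5-10618, PRMT5-10770 and PRMT5-10771 it was at 4969, 4166, 5402 and 4833 normalized counts, and in controls it was at 6563 in CTRL-10650, 6680.4 in CTRL-10370, 5963 in CTRL-10596 and 6748 in CTRL-10597. All 4 Prmt5-null libraries were below all 4 controls, with PRMT5-10618 the lowest. The log2 fold change was -0.43 ± 0.087 (SE), with an adjusted p of 0.00734 from limma. Libraries are listed in this order from here on.

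Cars was at 3140.5, 2763, 3302 and 3134 in Prmt5-null libraries and at 4290.0, 4153, 3775 and 4299 in controls. The genotypes did not overlap, and the log2 fold change was -0.42 ± 0.079 (SE, adjusted p = 0.00485 from limma). Nars, which charges asparagine, was at 9174, 8720.3, 9643 and 9073 against 11934, 11666, 10878 and 11849.8. It too was lower in every Prmt5-null library, with a log2 fold change of -0.34 ± 0.068 (SE, adjusted p = 0.00666 from limma).

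Lars charges leucine, and its protein also senses that amino acid for the kinase mTORC1. It was at 8822, 8336, 9471 and 8513 in Prmt5-null and at 11530.0, 11327, 10476 and 10961 in control libraries, without overlap. Its log2 fold change was -0.33 ± 0.071 (SE, adjusted p = 0.00868 from limma). Tars, the threonine enzyme gene, was at 6685, 6808, 7078 and 6788 against 8850.3, 8417, 8092 and 8701 in controls. Its log2 fold change was -0.32 ± 0.065 (SE, adjusted p = 0.00769 from limma).

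Gars was the exception among the genes of larger change, because its genotypes overlapped. Prmt5-null libraries were at 9346, 8088, 10449.8 and 8991 and controls at 13068, 12596, 10091 and 11398. PRMT5-10770 was above CTRL-10596 and below the other controls. The log2 fold change of -0.35 ± 0.1 had an adjusted p of 0.0378 from limma, while the exact two-sided permutation test over the libraries gave p = 0.0571, where the smallest p that 4 against 4 can give is 0.0286.

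Vars was at 28340.3, 27489, 26683 and 27061 in Prmt5-null and 34549, 32940.2, 33727 and 32926 in control libraries, a clear gap between the genotypes in the most abundant member per length (log2 fold change -0.29 ± 0.069, SE, adjusted p = 0.0155 from limma). The genotypes also did not overlap for Eprs, Wars and Aars. Eprs encodes a fused enzyme for glutamate and proline, at 22958, 20172, 19978 and 21225 in Prmt5-null against 26654, 23189, 25131 and 26974 in control libraries (log2 fold change -0.27, adjusted p = 0.0428 from limma). Wars, the tryptophan gene, had the lowest counts of the 10, at 2839, 2679.8, 2682 and 2669.9 against 3669.6, 3121, 3289.8 and 3045 (log2 fold change -0.27, adjusted p = 0.0386 from limma). Aars, the alanine gene, was at 12696, 11746, 13049 and 12310.5 against 15039, 14860.4, 14026 and 15186 (log2 fold change -0.25, adjusted p = 0.0328 from limma).

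**Figure D2:**
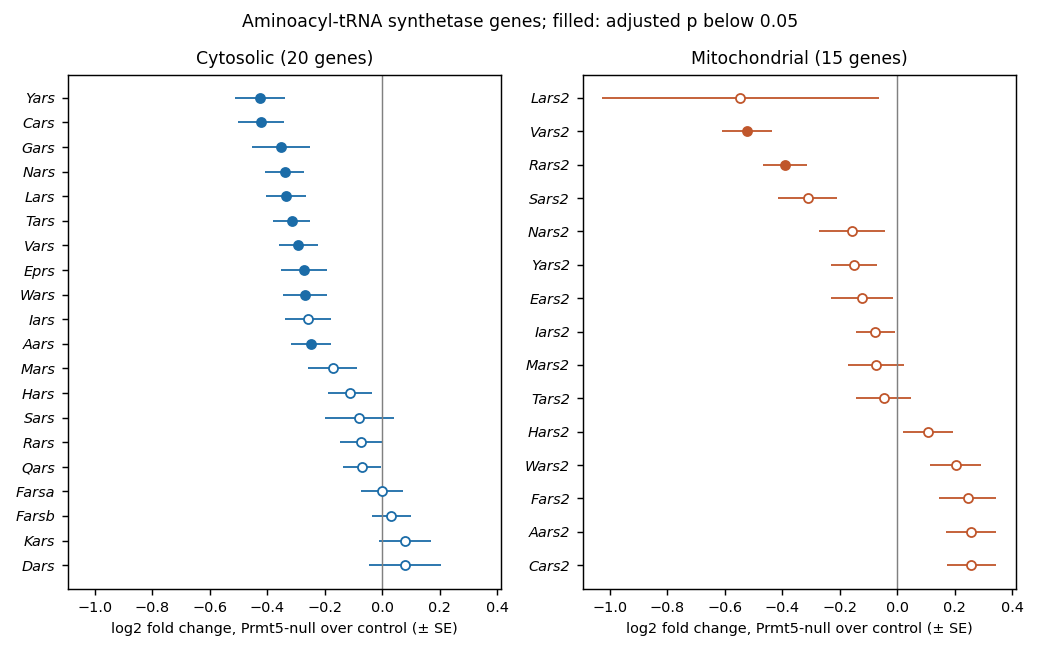
Log2 fold change, Prmt5-null over control, for 20 cytosolic (left) and 15 mitochondrial (right) synthetase genes, with points at the limma estimate, bars of ± SE over 4 libraries per genotype and filled points for an adjusted p below 0.05. Filled cytosolic points lie between -0.43 and -0.25, and the filled mitochondrial points are Vars2 and Rars2.

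Altogether 9 of the 20 cytosolic genes were lower in Prmt5-null iGBs without overlap between the genotypes, against 10.2% of all genes tested. Within the Gm10800 library sets, the median log2 difference over all 20 cytosolic genes was -0.23 in the first and -0.25 in the second, and 18 of the 20 had the sign of the full comparison in both. The count of 10 depended on single libraries. It was 5 without PRMT5-10771, and 6 without PRMT5-10618 or without CTRL-10650. The genes lost each time were Aars, Eprs, Gars and Wars, joined by Vars without PRMT5-10771, whereas Cars, Lars, Nars, Tars and Yars kept their call in every setting run.

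The 10 cytosolic genes that did not pass the test had log2 fold changes of -0.26 to 0.08. Iars, the isoleucine gene, was close to the threshold at 9546, 8511, 10056 and 9279 in Prmt5-null against 11979, 11158, 9998 and 11616 in control libraries (log2 fold change -0.26 ± 0.081, SE, adjusted p = 0.055 from limma). PRMT5-10770 was just above CTRL-10596. Iars passed the test with a block of the Gm10800 library sets (adjusted p = 0.0391 from limma), with TMM (0.0492) or quantile normalization (0.0431) and with DESeq2 (0.0252). Under each of these, 11 cytosolic genes were lower, while over all settings run the adjusted p of Iars ranged from 0.0252 to 0.138. Mars, the methionine gene, had an estimate of -0.17 and Hars, the histidine gene, -0.11. Estimates for Sars, Rars (arginine) and Qars (glutamine) were between -0.08 and -0.07.

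The remaining cytosolic genes lay near no change. Farsa and Farsb, the α and β subunits of the phenylalanine enzyme, had log2 fold changes of 0.00 ± 0.074 and 0.03 ± 0.068 (SE). Kars was at 0.08 ± 0.09 and Dars, the aspartate gene, at 0.08 ± 0.13, with wider spread in Prmt5-null libraries (12970, the highest Dars value, in PRMT5-10770 against 8783 in PRMT5-10618). Of the 8 multisynthetase complex members, 2 fell (Lars and Eprs), 0 rose, and the median log2 fold change was -0.12. Among the 12 other cytosolic genes 8 fell, 0 rose, and the median was -0.28. The difference between these classes was not tested. The scaffold genes of the complex, Aimp1, Aimp2 and Eef1e1, included 0 of 3 called in either direction, with estimates of 0.25, 0.03 and -0.06.

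**Figure D3:**
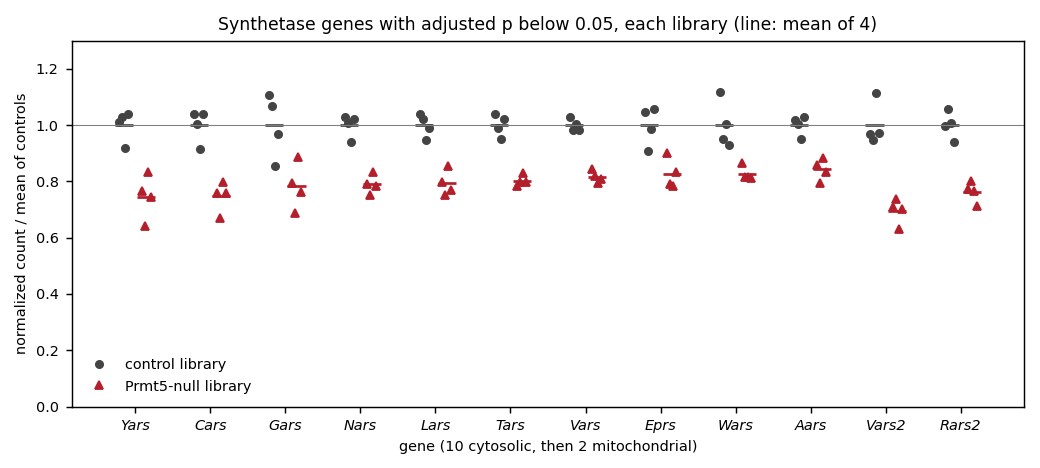
Normalized counts of the 12 synthetase genes with an adjusted p below 0.05, each divided by the control mean of its gene (vertical axis, from 0), for 4 control (circles) and 4 Prmt5-null (triangles) libraries, with lines at the means. The genotypes are apart for 11 genes and overlap for Gars.

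The mitochondrial genes did not move as a group. Of 15, 2 fell (Vars2 and Rars2), 0 rose and 13 did not pass the test, and the median log2 fold change was -0.08. Against the 7.33% of all genes that fell, 2 of 15 is a small count. Their estimates lay on both sides of 0, 10 negative and 5 positive, over a range of -0.54 to 0.26.

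Vars2, the mitochondrial valine gene, had the largest change of all called members. It was at 1086, 1127, 966 and 1076 in Prmt5-null and 1481, 1449.7, 1704 and 1487 in control libraries. The genotypes were well apart, and CTRL-10596 was the highest. The log2 fold change was -0.52 ± 0.087 (SE, adjusted p = 0.00227 from limma). Rars2, the mitochondrial arginine gene, was at 1515, 1569, 1499.6 and 1400.3 against 1954, 2071, 1975 and 1845 in controls, again without overlap (log2 fold change -0.39 ± 0.075, SE, adjusted p = 0.00545 from limma). Both kept their call in every setting run, and their cytosolic counterparts were unlike each other, Vars lower at -0.29 and Rars not called at -0.08.

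Sars2, the mitochondrial serine gene, was at 699, 796, 596 and 678 in Prmt5-null and 843, 905, 884 and 792 in control libraries. PRMT5-10618 was above CTRL-10597 and below the other controls, and the log2 fold change of -0.31 ± 0.1 (SE) had an adjusted p of 0.0671 from limma. Over all settings run the adjusted p of Sars2 ranged from 0.0304 to 0.15, and it was called lower with DESeq2 and without PRMT5-10618. Yars2 (tyrosine) was lower in all 4 Prmt5-null libraries, by a small margin, at 1088, 982, 994 and 960.3 against 1089, 1105, 1094 and 1173 (log2 fold change -0.15, adjusted p = 0.241 from limma). Nars2, Ears2 (glutamate), Iars2, Mars2 and Tars2 had estimates of -0.16 to -0.05 and overlapped between genotypes.

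Another 3 mitochondrial genes, Aars2, Fars2 and Wars2, were higher in all Prmt5-null libraries than in any control, against 9.67% of all genes, yet none passed the test. Aars2 was at 1417, 1223, 1359 and 1239.7 against 1007, 1123, 1178 and 1074 (log2 fold change 0.26 ± 0.087, SE, adjusted p = 0.0709 from limma). Fars2 was at 859, 892, 1111 and 861 against 787, 793, 782 and 761, where PRMT5-10770 stood apart from the other 3. Wars2 was at 644, 635, 635 and 598 against 573, 563, 529 and 517, a narrow gap. Cars2, with the same estimate as Aars2, overlapped because CTRL-10596 (1627) was above PRMT5-10771 (1624), and its adjusted p was 0.0653 from limma. Hars2, at 0.11 ± 0.086 (SE), overlapped between genotypes.

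Lars2, the mitochondrial leucine gene, had the most negative estimate of the 35 and by far the largest error, -0.54 ± 0.48 (SE, adjusted p = 0.488 from limma). Its normalized counts were 2114, 5201, 4238 and 4614 in Prmt5-null and 8251, 15106, 2785 and 2806 in control libraries. CTRL-10650 and CTRL-10370 were the highest, whereas CTRL-10596 and CTRL-10597 were lower than 3 of the 4 Prmt5-null libraries. Within the Gm10800 library sets the log2 difference was 0.25 in the first and -1.34 in the second.

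Another 4 genes, picked after their values were seen, ranked the libraries in nearly the same way. The annotated miRNA gene Gm23935 was at 3096, 6571, 6475 and 6384 in Prmt5-null and 11391, 25311, 3745 and 3589 in control libraries. Gm24270 and mmu-mir-6236, also annotated as miRNAs, and the antisense gene Gm15564 had the same highest and lowest groups of libraries. The 402-base Gm15564 transcript and the 3894-base Lars2 transcript share an identical run of 52 bases that starts at base 3278 of Lars2, past its 2706 coding bases. No Lars2 value here separates reads on that stretch from reads on the coding part, and its part in the Lars2 result was not tested.

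**Figure D4:**
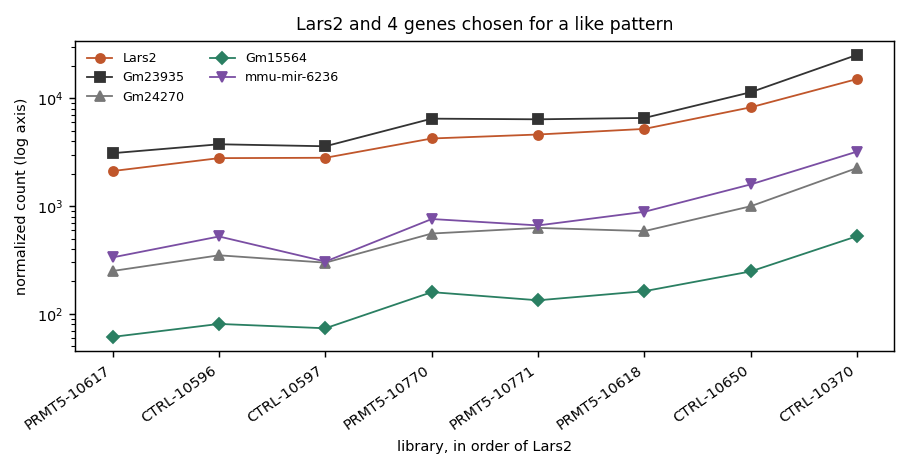
Normalized counts (log axis) of Lars2 and of 4 genes chosen for a like pattern, in the 8 libraries ordered by Lars2, with lines that only join points of 1 gene. All 5 genes are highest in CTRL-10370 and then CTRL-10650, and libraries of both genotypes lie at the low end.

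Some members share annotated exon bases with a neighbour. The strand setting of the counting is not given in the sources used here, so reads of such pairs cannot be told apart. Among the genes that fell, Vars2 shares 465 bases with the antisense gene Gm20483, Cars 211 with the pseudogene Gm15580, Yars 30 with C77080, and Aars 1326 with Exosc6 on the same strand. Hars and Hars2 share 195 bases with each other, Mars 68 with Ddit3, and Iars2 2034 with Rab3gap2.

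Splicing was measured as inclusion level, the estimated share of transcripts that hold an exon or intron. The deposited tables list only events the authors selected for a difference between genotypes, at most 1 per gene and type, so the values are the authors' and carry no test. They come as 4 values per genotype that are not tied to library names. Of the 35 synthetase genes 6 had an event, the mitochondrial Sars2, Rars2, Nars2, Vars2 and Tars2 and the cytosolic Vars. That is 5 of 15 mitochondrial genes (33.3%) and 1 of 20 cytosolic genes (5%), beside 1519 of 13300 genes (11.4%) with a mean above 50 normalized counts.

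A skipped exon was listed for Sars2, Rars2, Nars2 and Vars2. None of the 4 exons has a length that is a multiple of 3, as held for 531 of the 913 skipped exons listed (58.2%), and all lie in coding sequence. Their sequences from the GENCODE transcripts (GRCm38) are shown 5′ to 3′ because these are the segments of the listed events. The last 3 exon bases before the 5′ splice site are in capitals.
Sars2 exon, chr7:28747487-28747550 (+): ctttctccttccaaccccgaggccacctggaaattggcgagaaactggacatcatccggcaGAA
Rars2 exon, chr4:34633658-34633713 (+): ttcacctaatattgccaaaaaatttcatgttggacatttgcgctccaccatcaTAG
Nars2 exon, chr7:97035231-97035297 (+): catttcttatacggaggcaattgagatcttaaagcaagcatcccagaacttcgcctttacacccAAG
Vars2 exon, chr17:35660214-35660284 (-): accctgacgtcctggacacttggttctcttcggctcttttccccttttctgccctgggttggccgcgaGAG

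The 64-base Sars2 exon had inclusion levels of 0.922, 1, 1 and 1 in control and 0.737, 0.856, 0.698 and 0.702 in Prmt5-null iGBs. The genotypes were apart. The 4 control values rest on 1 skipping read among 101 and the Prmt5-null values on 17 among 91. The 56-base Rars2 exon was fully included in controls, with no skipping read among 92. A count of 0 allows skipping reads to be up to 3.26% of the reads, a share that is not on the scale of the inclusion levels. In Prmt5-null iGBs its levels were 0.906, 0.814, 0.707 and 0.798, with 12 skipping reads among 82. All Prmt5-null values lay below the controls.

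The genotypes overlapped for the other skipped exons. The 67-base Nars2 exon was at 0.764, 0.877, 1 and 1 in controls and at 0.764, 1, 0.699 and 0.619 in Prmt5-null iGBs. The 71-base Vars2 exon was at 1, 0.845, 0.972 and 0.962 against 0.832, 0.781, 0.877 and 0.881. For Vars2 only 1 control value fell in the range of the Prmt5-null ones. Of the 4 genes with a skipped exon, Vars2 and Rars2 fell in total mRNA, and Sars2 and Nars2 did not pass the test.

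For Tars2 the table lists mutually exclusive exons of 138 and 163 bases. The inclusion levels of 0.668, 0.792, 0.631 and 0.834 in controls and 0.859, 0.785, 0.853 and 0.838 in Prmt5-null iGBs overlapped. From junction reads alone the authors' levels for this event were quite unlike these. They were 0, 0.5, 0 and 0.571 in controls and 0.333, 1, 0.75 and 1 in Prmt5-null iGBs, again with overlap. Which of the exons the level refers to is not given here.

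Vars had the only retained intron among the members and the deepest support of the 6 events, 8026 reads. The 83-base intron is printed 5′ to 3′ from the GENCODE transcript that retains it (GRCm38), with the first 6 and last 2 bases, at its 5′ and 3′ splice sites, in capitals.
Vars intron, chr17:35004894-35004976 (+): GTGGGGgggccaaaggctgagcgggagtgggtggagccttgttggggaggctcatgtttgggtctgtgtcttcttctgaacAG
Its inclusion level was 0.053, 0.052, 0.07 and 0.066 in control and 0.17, 0.229, 0.146 and 0.176 in Prmt5-null iGBs, so every Prmt5-null value was above every control. Inclusion reads summed to 421 of 4394 in controls and 981 of 3632 in Prmt5-null iGBs. The total Vars mRNA fell in the same comparison, as given above.

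**Figure D5:**
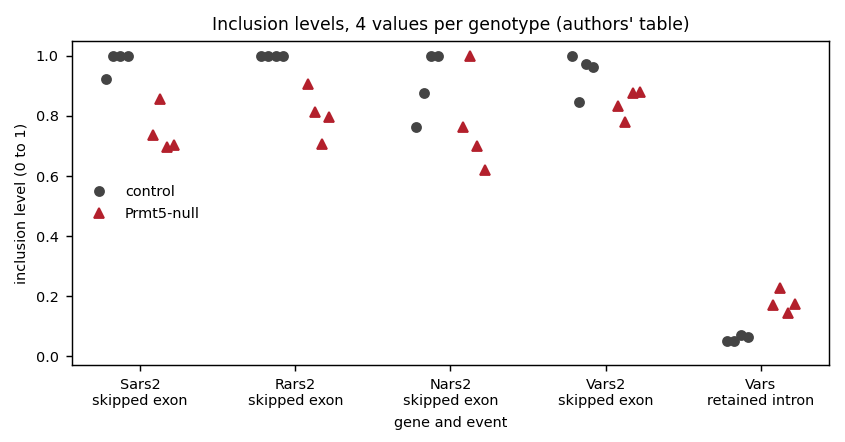
Inclusion level (0 to 1) of the skipped exons of Sars2, Rars2, Nars2 and Vars2 and of the retained intron of Vars, with the authors' 4 values per genotype as circles (control) and triangles (Prmt5-null). The genotypes are apart for Sars2, Rars2 and Vars and overlap for Nars2 and Vars2.

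RefSeq promoter windows (GRCm38.p6, 250 bases before to 50 after the start) were matched for 27 of the 35 genes, 13 cytosolic and 14 mitochondrial. Cars, Hars, Lars, Nars, Rars, Vars, Wars and Hars2 were not matched. The windows were searched on both strands for TGATGNAA, the core of the composite element that C/EBP and ATF proteins bind. It was found in 5 of 13 cytosolic windows (38.5%), those of Aars, Gars, Iars, Tars and Yars, in 0 of 14 mitochondrial ones, and in 1304 of 32851 promoter windows of the same length (3.97%). Of the 5 matched cytosolic genes that fell, 4 held it, as did 1 of the 8 that did not pass the test, Iars. The genes Cars, Lars, Nars, Vars and Wars also fell but had no matched window, so they are not in this count. Only the letters were matched, and a link between the element and the fall was not tested.

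The 5 windows with a match are printed to show where the element lies. They run 5′ to 3′ along the gene, with the match in capitals (as its reverse complement where it is on the other strand). The RefSeq start is the first positive position, and there is no position 0. On that count the first base of the match lies at -112 and 10 in Aars, -30 in Gars, 8 in Iars, -15 in Tars and 4 in Yars.
Aars, chr8:111033592-111033891 (+): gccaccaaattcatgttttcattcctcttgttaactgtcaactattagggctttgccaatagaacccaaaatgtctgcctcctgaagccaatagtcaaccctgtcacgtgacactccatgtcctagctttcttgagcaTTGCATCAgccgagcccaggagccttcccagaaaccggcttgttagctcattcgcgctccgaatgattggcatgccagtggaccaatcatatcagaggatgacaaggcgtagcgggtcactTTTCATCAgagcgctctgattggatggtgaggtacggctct
Gars, chr6:55037751-55038050 (+): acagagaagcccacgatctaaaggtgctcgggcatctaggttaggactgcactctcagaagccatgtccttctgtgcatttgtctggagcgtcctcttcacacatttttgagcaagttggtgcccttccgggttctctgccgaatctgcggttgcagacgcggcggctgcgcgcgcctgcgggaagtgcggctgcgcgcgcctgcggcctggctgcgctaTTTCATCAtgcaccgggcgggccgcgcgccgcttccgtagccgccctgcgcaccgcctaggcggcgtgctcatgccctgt
Iars, chr13:49681880-49682179 (+): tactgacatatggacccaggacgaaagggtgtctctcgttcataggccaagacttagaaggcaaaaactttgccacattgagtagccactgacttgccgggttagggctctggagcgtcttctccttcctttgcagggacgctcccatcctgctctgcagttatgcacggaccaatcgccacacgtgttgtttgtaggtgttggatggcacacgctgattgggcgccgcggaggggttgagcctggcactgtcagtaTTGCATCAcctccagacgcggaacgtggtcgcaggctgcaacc
Tars, chr15:11399609-11399908 (-): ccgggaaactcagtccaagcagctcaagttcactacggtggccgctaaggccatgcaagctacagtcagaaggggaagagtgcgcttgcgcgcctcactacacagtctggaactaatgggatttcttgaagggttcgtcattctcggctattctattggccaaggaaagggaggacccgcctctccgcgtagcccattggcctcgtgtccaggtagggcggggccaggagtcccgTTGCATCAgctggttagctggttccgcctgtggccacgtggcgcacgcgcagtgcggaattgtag
Yars, chr4:129189653-129189952 (+): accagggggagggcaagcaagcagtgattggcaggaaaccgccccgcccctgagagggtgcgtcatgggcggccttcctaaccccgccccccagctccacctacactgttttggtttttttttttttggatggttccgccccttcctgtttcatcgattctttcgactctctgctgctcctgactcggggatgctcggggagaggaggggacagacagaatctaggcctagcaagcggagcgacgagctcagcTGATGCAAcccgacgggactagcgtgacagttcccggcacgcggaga

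CACGTG, the E-box that MYC and related factors bind, reads the same on both strands and does not share bases with these matches. It was found in 4 of 13 cytosolic windows (Aars, Farsb, Iars and Tars), in 1 of 14 mitochondrial windows (Ears2) and in 7.15% of all windows. Myc mRNA had a log2 fold change of -0.18 (adjusted p = 0.38 from limma), with overlap between genotypes.

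Atf4 and many genes listed as its targets were lower in the same libraries. Atf4 itself was at 10297, 11530, 10928 and 10209 in Prmt5-null and 13339, 16920, 14649 and 14886 in control libraries, without overlap (log2 fold change -0.47 ± 0.084, SE, adjusted p = 0.00368 from limma). Of 24 genes listed as ATF4 targets outside the synthetases, 14 fell, 0 rose and 10 did not pass the test. Over all genes tested 7.33% fell. The median log2 fold change of the 24 was -0.56. The list was written with earlier results of these data known, so its count is not independent of them. Among those with a mean above 50 normalized counts, the 5 of largest change were Pycr1 (proline synthesis, -1.77), Gpt2 (alanine aminotransferase, -1.48), Chac1 (glutathione breakdown, -1.22) and the amino acid transporters Slc1a4 (-1.09) and Slc7a3 (-0.92). Below that mean, Stc2 (stanniocalcin 2), named after its value was seen, fell by 1.80 on the log2 scale (adjusted p = 0.0423 from limma). The called cytosolic synthetase genes lay between -0.43 and -0.25, closer to 0 than these.

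Among 16 regulators of the stress response 2 fell (Atf4 and Ddit3, -0.54), 1 rose (Sesn2, 0.66) and 13 did not pass the test. These are small counts beside the 7.33% of all genes that fell and the 6.51% that rose. The median log2 fold change of the 16 was -0.05. Ppp1r15a, a phosphatase subunit that reverses eIF2α phosphorylation, and Trib3, an ATF4-induced pseudokinase, had estimates of -0.66 and -0.63 with adjusted p of 0.107 and 0.179 from limma. Outside the 35 genes, Mtfmt, which formylates the mitochondrial initiator tRNA, rose (log2 fold change 0.53, adjusted p = 0.024 from limma), and Pars2 was at 0.31 (adjusted p = 0.0583 from limma).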

How the data were processed

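RNA was depleted of rRNA and sequenced as stranded paired-end libraries, from 4 independent samples of each genotype. Per the labels and the study's methods, the authors trimmed reads with Trimmomatic 0.32, aligned them with STAR 2.3.0e to mm10 (GRCm38), ran featureCounts 1.4.4 on reads with 1 mapped position, over Ensembl exons, and normalized with DESeq2 1.14.1. The deposited expression signal is thus a count divided by 1 size factor per library. All values came out as whole reads (100%, within 0.02 reads), and edgeR on those reads called 2274 genes. The deposited splicing tables hold the authors' inclusion levels, read counts, differences and p-values from rMATS, and their differences and p-values were not used.

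Genes with a mean of at least 10 normalized counts were tested with limma 3.58.1 (trend) on log2(normalized count + 1) in R 4.3.3, all 8 libraries together without a term for the 2 experiments, which the labels do not tie to libraries, and with Benjamini-Hochberg adjustment over 16250 genes. Fold changes are on that scale. The fit was checked on simulated data. Alternatives were pseudocounts of 0.5 and 10, no filter, a mean above 50, TMM, quantile normalization, no trend, edgeR 4.0.16, DESeq2 1.42.0, an adjusted p under 0.01, each library left out, and an experiment block in all 18 placements. A block of the Gm10800 library sets and values within them were added after the data were seen. The members and lists were chosen with earlier results of these data known. Any of the 35 genes could be named, with values per library for those called or nearest to it, and at most 5 genes of largest change and a mean above 50 in each other list, beside Prmt5, Atf4 and Myc. Inclusion levels and counts cover counting error only, and nothing separates extraction or library batches. Other genes of tRNA charging were fitted too, and part of that list is not reported here.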

Additional observations from a re-analysis of the deposited data

Results flagged for a closer look

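In 70 groups of 4 libraries (35 genes in 2 genotypes), 4 held a library that stood apart by the gap to its nearest neighbour relative to the range of the group, where chance gives about 1 in 20. CTRL-10370 had 12065 normalized counts of Dars, while the other controls had 9027 to 9506. PRMT5-10617 had 2839 of Wars, beside 2670 to 2682, and still lay below every control. PRMT5-10770 had 1111 of Fars2, beside 859 to 892. CTRL-10596 had 1704 of Vars2, beside 1450 to 1487, on the side away from the Prmt5-null libraries.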

How the results depend on the processing

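No paired analysis was possible because the genotypes share no replicate number and no label pairs their libraries. The 10 lower cytosolic genes became 6 with no filter or no trend, 5 at an adjusted p under 0.01, 6 at the fewest of 18 experiment placements, and 5 to 11 with each library left out in turn. Mitochondrial genes called higher went from 0 to 2 with DESeq2 (Aars2 and Cars2), 1 at the most of the placements and 0 to 1 with a library left out (Cars2 without CTRL-10596). Those called lower went from 2 to 3 with DESeq2 and without PRMT5-10618, with Sars2 added. The 2249 genes called among all genes became 971 at an adjusted p under 0.01 and 1374 to 2371 with a library left out. The mitochondrial median of -0.08 ranged from -0.134 to -0.062 without single libraries. Signs reversed for Farsa (0.0023 with edgeR, 0.0021 with DESeq2 and from -0.036 to 0.033 with a library left out) and, without PRMT5-10770, for Dars (-0.023, up to 0.174 without another library) and Tars2 (0.0096, down to -0.106), none of them called. Of 735 single-gene settings, 669 kept direction and side of the threshold. The cause of these shifts was not tested.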
